A study of Cardamine hirsuta with 24 samples.

Results

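The 100 genes described here were the steadiest across 24 RNA-seq libraries of *Cardamine hirsuta* shoot apices. Counts were divided by the sum over all gene rows of a library and scaled to 1000000 per library (CPM), and the 4331 of 29458 listed genes with a mean of at least 50 CPM were ranked by the standard deviation (SD) of log2(CPM + 1). The 100 with the lowest SD were kept, as candidate references for this tissue. The genes were thus chosen by the measured values themselves, the SD and mean CPM of these libraries, and their steadiness in these libraries is a description with no test.

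All seedlings were of the Oxford strain, 12 days old, and carried *RCOp::LhG4:GR* with an operator-driven *ChCUC1:Venus*. LhG4:GR was thus made where the leaf-shape gene *RCO* is normally switched on, which is a small part of the leaf edge, and dexamethasone lets this activator enter the nucleus. Dex groups received dexamethasone at 10 µM and Mock groups DMSO at 0.1%, and were harvested after 2, 4, 6 or 8 h, and each of these 8 groups had 3 replicates. Each library came from pooled seedlings whose apices were freed of roots, cotyledons and mature leaves, so a gene driven from the leaf edge was read in a mixture of cells, and Mock seedlings carried the same transgenes.

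A reference gene is a transcript whose share of the RNA changes little between samples, so that other genes can be expressed relative to it. In plants, actin, tubulin, polyubiquitin, cyclophilin and GAPDH genes are the usual choice, because cells of every kind make the cytoskeleton, degrade proteins and run glycolysis. Such genes can still respond to growth, stress or light. A steady CPM is a steady share of the counted reads. In whole apices it cannot be told apart from fewer cells with more RNA per cell, or the reverse.

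Gene counts per library were 12.9 M to 22.96 M (M stands for 1000000), and members had at least 602 counts in every library. The share of listed reads with no gene was 5.65% to 15.8%, highest in 4 h Mock replicate 3. Shoot apex markers were detected, with mean CPM of 19.8 for *BP*, a homeobox gene of the meristem, and 23.5 for *ATHB8*, a homeobox gene of vascular precursor cells, while *AS2* had 1.32 and *WOX9* 0.127. Of the lists for other tissue, all 6 green leaf genes had at least 372 CPM on average, but they were not constant over time. The least steady of them, *LHCB2*, had 2129 to 3352 CPM at 2 h and 23.8 to 108 at 8 h. The steadiest, *PSBO1*, had 2681 to 3983 CPM at 2 h and 1286 to 1833 at 8 h. The summed CPM of the 6 paired root genes ran from 2.94 to 273 in Dex and from 1.64 to 45.1 in Mock, and that of the 7 seed maturation genes from 0.62 to 52.0 and from 1.08 to 12.1. Both Dex maxima came from libraries of 2 h. In 2 h Dex replicates 1, 2 and 3 the root gene *NRT2.1* had 89.7, 6.49 and 83.4 CPM, and the seed gene *M17* 40.4, 6.78 and 41.3. The other paired root genes were also lowest in replicate 2 there, as were the seed genes *OLEO1* and *ABI3*. *CRA1* (0.87, 3.99 and 1.92 CPM) and *CRC* (0.20, 0.96 and 0.57) were highest in replicate 2. *OLEO2* differed little (3.78, 3.85 and 4.62), and *FUS3* was lowest in replicate 3. In 2 h Mock replicate 2 the root genes *PRX73* and *PRX44* had 20.2 and 18.0 CPM. In Dex at later times *NRT2.1* had at most 24.2 CPM and *M17* at most 8.43. The part of these tissues in the ranking was not tested.

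The members had an SD of 0.0526 to 0.135 on the log2 scale, with a median of 0.122, whereas the median over all 4331 genes was 0.338. Between their lowest and highest library, members differed 1.16- to 1.62-fold (median 1.39-fold). The difference was under 1.5-fold for 92 of the 100 members and for 3.93% of the 4331 genes. At the limit of the list, the last 5 members had SDs of 0.134 to 0.135 and the next 5 genes 0.135 to 0.138, so membership near the limit rests on differences in the third decimal.

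Counting error alone would give the members a median SD of 0.0370, and their observed SD was a median of 3.21 times that value, against 9.77 times for the 4331 genes. Only CARHR053170, CARHR139750 and CARHR103800 lay under 2 times counting error, and no other gene of the 4331 did. Most members therefore varied by more than read sampling at this depth gives. Their biological coefficient of variation in the edgeR fit had a median of 0.128, against 0.187 over the 4331 genes. That fit scales libraries by TMM (described below) and draws each gene toward the trend over genes. Its values are therefore not a part of the SDs above.

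**Figure D1:**
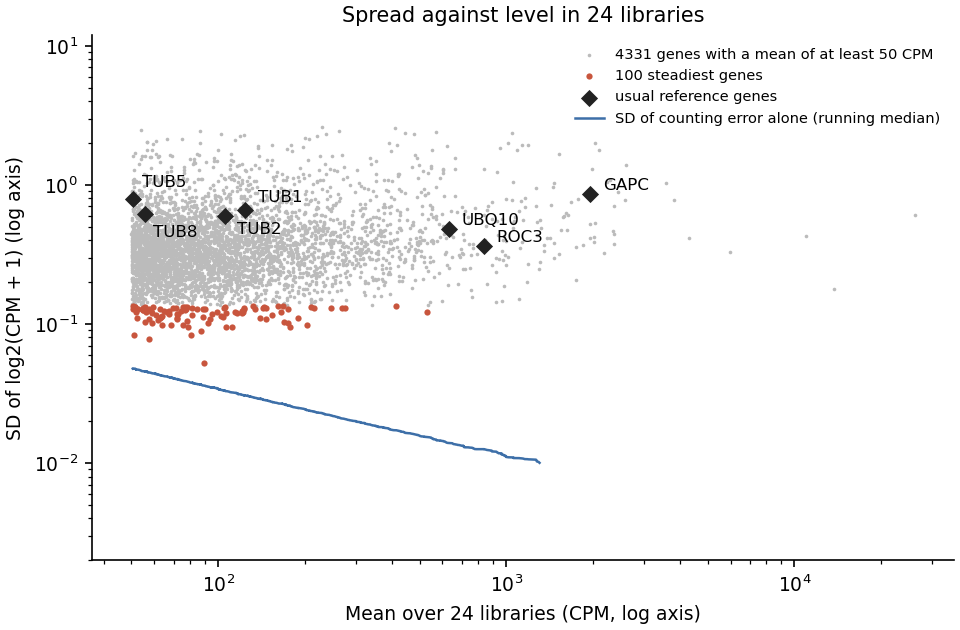
SD of log2(CPM + 1) over 24 libraries (vertical, log axis) against mean CPM (horizontal, log axis) for 4331 genes in grey, the 100 steadiest genes in red and 7 usual reference genes as black diamonds. The blue line is the running median of the SD from counting error, and only CARHR053170, CARHR139750 and CARHR103800 lie within 2 times of their own counting error.

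Members were spread over the lower levels. Of the 2400 genes with 50 to 100 CPM, 62 were members (2.58%), as were 30 of 1181 with 100 to 200 CPM, 7 of 538 with 200 to 500 CPM and 1 of 134 with 500 to 1000 CPM. None of the 78 genes above 1000 CPM was a member, and the lowest SD among those 78 was 0.150. Mean CPM of the members ran from 50.5 to 531 (median 80.7). CPM is not divided by gene length, so this order is one of read numbers and not of transcripts.

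CARHR053170, which has no *A. thaliana* counterpart in the tables used here, was the steadiest gene. At 2 h its values were 89.7, 83.8 and 97.2 CPM in Dex and 88.3, 85.4 and 85.6 in Mock. They were 88.8, 88.3 and 90.5 in Dex and 89.6, 92.7 and 83.8 in Mock at 4 h. Dex libraries at 6 h had 85.0, 93.0 and 90.1 CPM and Mock libraries 89.5, 90.7 and 91.5. At 8 h the values were 87.7, 93.7 and 91.1 in Dex and 92.4, 88.5 and 86.6 in Mock. The highest value came from 2 h Dex replicate 3 and the lowest from 2 h Dex replicate 2, with 4 h Mock replicate 3 next to it, and Dex and Mock overlapped at every time. Its SD of 0.0526 compared with 0.0351 from counting error alone.

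The other 4 of the steadiest 5 were CARHR139750 (51.4 to 61.5 CPM, median 58.0), CARHR168370 (71.8 to 88.1, median 81.5), CARHR103800 (45.8 to 57.2, median 51.0) and CARHR158630 (77.1 to 102, median 86.6). For each of them the ranges of the 12 Dex and 12 Mock libraries overlapped, although at 8 h CARHR158630 had 92.3 to 93.5 CPM in Dex and 86.6 to 91.7 in Mock. CARHR139750 had a median of 57.0 CPM in Dex and 59.1 in Mock, and CARHR168370 80.7 and 82.2. CARHR158630 owed its highest value to 4 h Mock replicate 3. At the upper end of the levels stood CARHR246630 (445 to 632 CPM), CARHR178800 (323 to 465) and CARHR172460 (237 to 336). The lowest value of CARHR178800 and the highest of CARHR246630 and CARHR172460 were all in 4 h Mock replicate 3. Among the members with the lowest mean were CARHR016710 (41.3 to 58.7 CPM) and CARHR054790, described next.

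Counterparts in *Arabidopsis thaliana* were known for 7 members, all from tables of ChCUC1 binding, and 93 had none. The first pair concerns nucleotides and protons. CARHR184380 (AT5G47840) corresponds to *AMK2*, an adenylate kinase that balances adenine nucleotides, and ranked 8. It had 97.3 to 122 CPM in Dex (median 116) and 93.5 to 117 in Mock (median 111). Over all times both groups overlapped over most of their range. At 4 h its values were 118, 120 and 122 CPM in Dex and 110, 117 and 113 in Mock, and at 8 h 112, 113 and 114 in Dex and 103, 104 and 108 in Mock, so Dex lay above Mock without overlap at both times. The groups overlapped at 2 h and at 6 h, where the means were 116 ± 5.60 in Dex and 106 ± 11.3 in Mock (SD, n = 3). CARHR169110 (AT3G58730) corresponds to *VHA-D*, a subunit of the proton pump of vacuole and Golgi membranes, and ranked 22. Its range was 134 to 164 CPM in Dex and 124 to 164 in Mock, with medians of 148 and 143. The lowest and the highest of its 24 values were both in 4 h Mock libraries, replicates 1 and 3.

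CARHR110880 (AT2G20360) corresponds to a subunit of mitochondrial complex I, the first enzyme of the respiratory chain. It had 93.5 to 118 CPM in Dex and 84.7 to 126 in Mock, with medians of 107 and 104. CARHR110860 (AT2G20330), a WD40 repeat protein in *A. thaliana*, had 61.0 to 71.7 CPM in Dex and 56.7 to 78.3 in Mock, and at 8 h its Dex libraries (67.5 to 71.7) lay below its Mock libraries (74.8 to 78.3). The lowest value of both genes was in 4 h Mock replicate 3. These genes stand 2 places apart in the order of the files, and their log2 values had r = 0.72 over the 24 libraries. The 2 other pairs of members at that distance had r = -0.13 and -0.00, and all 4950 pairs of members a median of 0.12, values that share libraries and depth and are given as a description.

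CARHR258890 (AT5G49830) corresponds to *EXO84B*, a part of the exocyst, which tethers secretory vesicles to the plasma membrane. It had 48.2 to 61.1 CPM in Dex (median 52.3) and 47.3 to 66.3 in Mock (median 57.5), and Dex lay below Mock without overlap at 6 h and at 8 h (49.7 to 52.7 against 57.7 to 61.2). CARHR269310 (AT5G55940) corresponds to *EMB2731*, a relative of a subunit of the complex that inserts proteins into the endoplasmic reticulum membrane. Its values at 2 h were 47.9 to 59.2 CPM and at 8 h 65.2 to 71.6, so the 6 libraries of each time did not overlap. CARHR054790 (AT1G56720), a protein kinase in *A. thaliana*, had 43.2 to 55.2 CPM in Dex and 44.95 to 60.4 in Mock.

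The share of members differed with where a counterpart came from, which follows from how the tables were made. Tables of genes that the study called as differential in these libraries paired 587 eligible genes, of which 0 were members. Of 311 genes paired through binding tables alone 7 were members (2.25%), beside 93 of 3433 genes without a pair (2.71%).

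**Figure D2:**
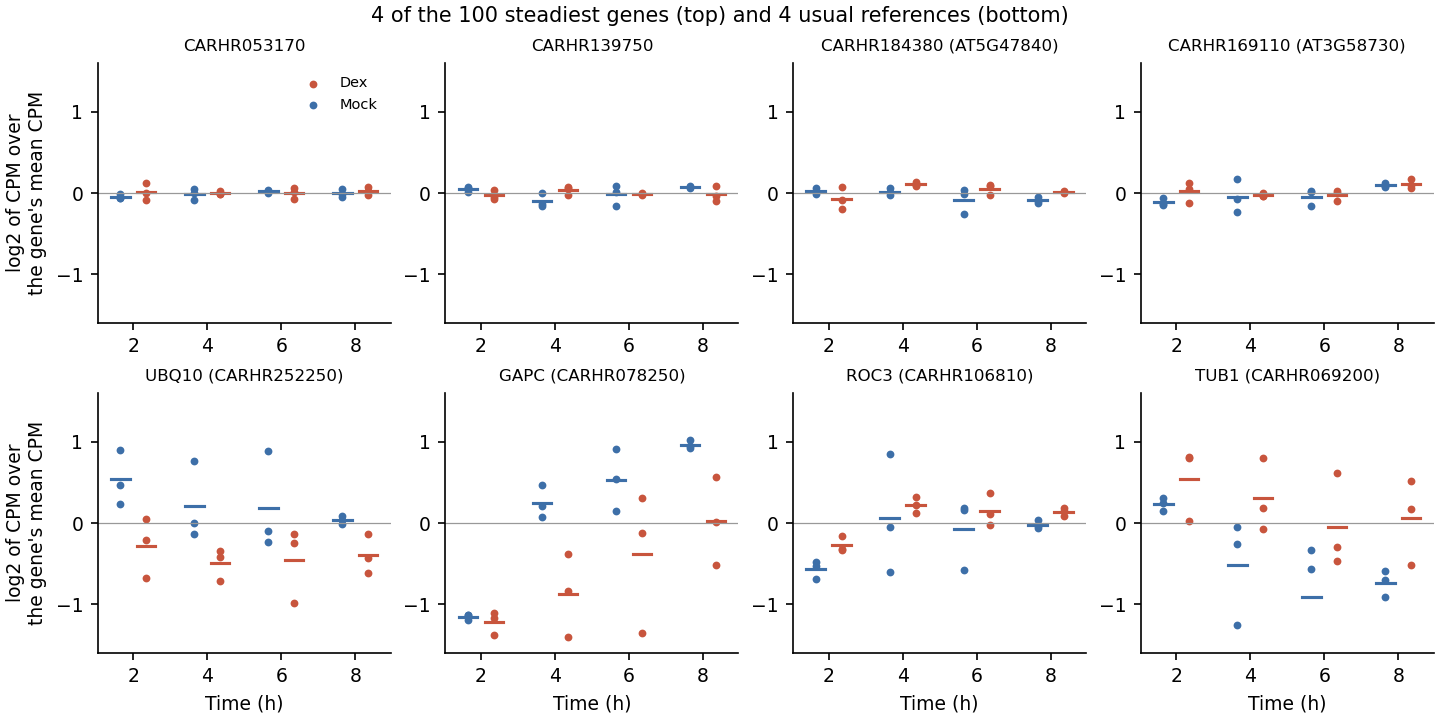
Each point is a library (log2 of its CPM over the mean CPM of the gene in 24 libraries, vertical) at 2, 4, 6 and 8 h (horizontal), Dex in red and Mock in blue, with bars at the mean of 3. The 4 members in the top row stay near 0, while *UBQ10*, *GAPC*, *ROC3* and *TUB1* in the bottom row spread 2.90- to 6.22-fold between their lowest and highest library.

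The question of which condition the remaining variation followed was read from the share of each gene's sum of squares. For the members the median share was 27.7% for time, 6.50% for treatment, 6.94% for their combination and 52.5% for the spread within groups. Over the 4331 genes the medians were 27.8%, 17.4%, 3.46% and 45.3%. Spread within groups was the largest source for 78 members and for 60.4% of the 4331 genes, and time for 22 members and 31.1% of the genes. Treatment was the largest for 0 members. A source with more levels or libraries takes a larger share by design, and the shares were not corrected for this. The rule used these same values, so a small share of treatment is part of the choice.

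Small drifts over time were seen in some members. CARHR135000 had 105 to 116 CPM in the 6 libraries of 2 h and 127 to 143 in those of 8 h, a log2 difference of 0.30, and CARHR269310 one of 0.29. In the other direction CARHR242430 had 230 to 293 CPM at 2 h and 198 to 234 at 8 h, a difference of -0.20, and CARHR133840 one of -0.19. The libraries of 2 h and 8 h did not overlap for CARHR135000, CARHR269310 and CARHR133840 and overlapped in part for CARHR242430. For 72 of the 100 members the mean was higher at 8 h than at 2 h, against 62.1% of the 4331 genes.

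Dex minus Mock, averaged over all libraries on this scale, was under 0.1 in size for 81 members and ran from -0.15 to 0.17. CARHR026740 stood highest, with 124 to 163 CPM in Dex and 116 to 134 in Mock, followed by CARHR038040 (0.14), with 52.7 to 61.7 and 44.2 to 59.3. CARHR166340 had 120 to 159 CPM in Dex and 137 to 183 in Mock, and CARHR254460 57.3 to 74.1 and 65.7 to 81.8, both with -0.15. Pooled over the times, the Dex and Mock ranges of all 4 genes overlapped. Within a time they came apart for CARHR026740 at 2, 4 and 8 h (at 4 h 133 to 159 CPM in Dex and 116 to 128 in Mock) and for CARHR166340 at 2 and 4 h (at 2 h 120 to 132 and 144 to 149). CARHR254460 was apart at 2 h (67.6 to 72.0 CPM in Dex and 78.2 to 81.8 in Mock) and at 8 h, and CARHR038040 at 8 h (56.2 to 61.7 and 50.2 to 53.6). Of the 100 members, 17 did not overlap at 2 h, 15 at 4 h, 10 at 6 h and 32 at 8 h, where 40.8%, 28.1%, 8.31% and 54.6% of the 4331 genes did not. The rule used these values too, so nothing is read from the counts.

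Members also differed in how they moved from library to library. Averaged over the 100, the deviation from each gene's own mean ran from -0.08 to 0.05 on the log2 scale. It was above 0 in all 6 libraries of 8 h (0.03 to 0.05), in which the 10 most abundant genes took 5.48% to 7.07% of the counts, against 6.68% to 12.7% in the other 18. The lowest averages were those of Mock replicate 1 at 2 h (-0.08), 4 h (-0.06) and 6 h (-0.07). The part of the most abundant genes in these shifts was not tested.

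In 4 h Mock replicate 3 the members were the most scattered, with an SD of their deviations of 0.199, against 0.0666 to 0.135 in the other 23 libraries. It was the farthest library from the mean for 28 of the 100 members, the lowest for 22 and the highest for 16. This library also had the largest share of reads without a gene and the largest share taken by the 10 most abundant genes. Without it, the same rule kept 67 of the 100 members, while leaving out any other single library kept 88 to 100. CARHR053170 was the steadiest gene in each of these 24 lists.

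**Figure D3:**
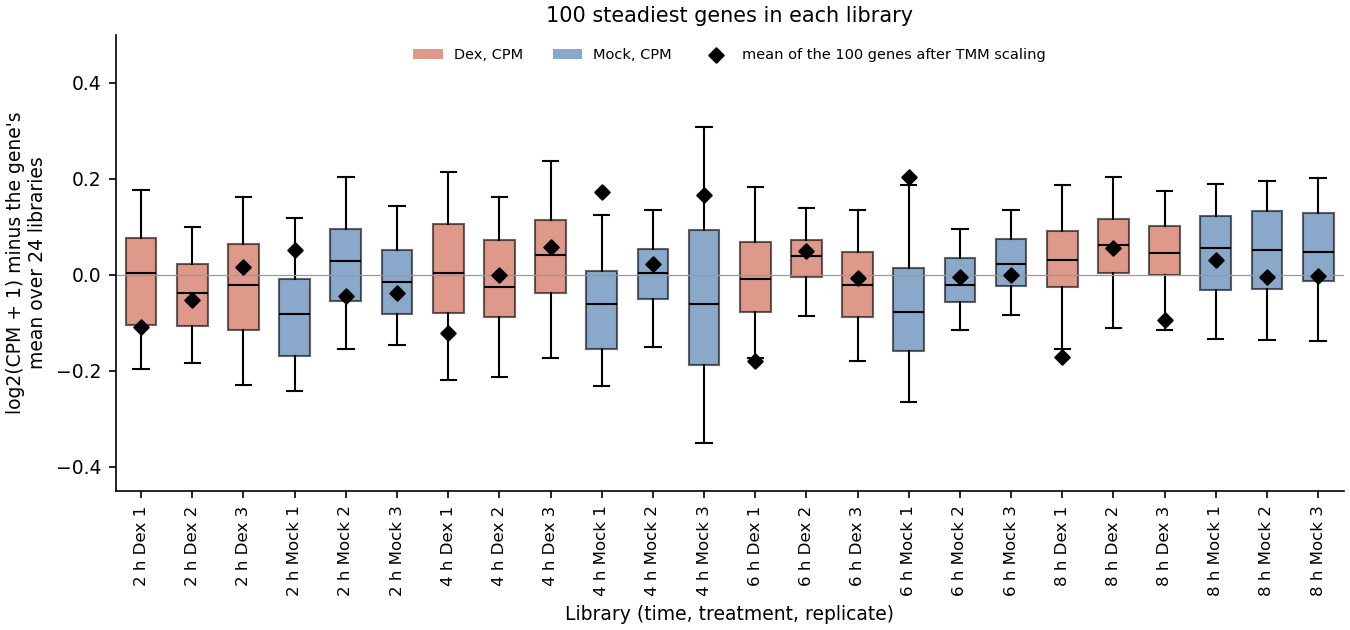
Deviation of log2(CPM + 1) from the gene's own mean for the 100 steadiest genes in each of 24 libraries (boxes are quartiles with the median, whiskers the 5th and 95th percentiles, red for Dex and blue for Mock), with the mean after TMM scaling as black diamonds. By the sum of gene rows the averages stay between -0.08 and 0.05, and after TMM scaling they run from -0.18 in 6 h Dex replicate 1 to 0.20 in 6 h Mock replicate 1.

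The list depended on how libraries were scaled. TMM, which sets library sizes from the bulk of genes after trimming the most extreme ratios, kept 30 members among its own 100 steadiest genes, and DESeq2 size factors kept the same 30. The 2 other lists shared 94 genes with each other. TMM factors averaged 1.11 in Dex replicate 1 and 0.90 in Mock replicate 1, against 0.98 to 1.02 in the other 4 sets of libraries. After TMM scaling the members stood on average at -0.18 to -0.11 in the 4 Dex libraries of replicate 1, at 0.17 and 0.20 in Mock replicate 1 at 4 and 6 h, and at 0.17 in 4 h Mock replicate 3. Which scaling follows the RNA of these cells more closely was not tested.

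Although most left the first 100, the members stayed in the steady part of the ranking under TMM, with a median SD of 0.138 (0.0857 to 0.221) against 0.322 over the 4331 genes. Their median rank there was 191.5 of 4328, their worst 988, and 53 of them lay in the steadiest 5%. CARHR053170 moved from rank 1 to 156 (SD 0.134), CARHR158630 to 362, and among members with a counterpart CARHR169110 came nearest to the first 100, at rank 104. CARHR103800 kept a low SD under both scalings (0.0836 and 0.0904), as did CARHR139750 (0.0778 and 0.106) and CARHR168370 (0.0833 and 0.103). Leaving out all libraries of replicate 1, 2 or 3 in turn kept 55, 87 and 62 members, and 32 were in each of the 3 lists. Of these 32, 12 were also among the 100 steadiest with TMM and with DESeq2 size factors, CARHR139750, CARHR168370 and CARHR103800 among them and none with a counterpart.

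**Figure D4:**
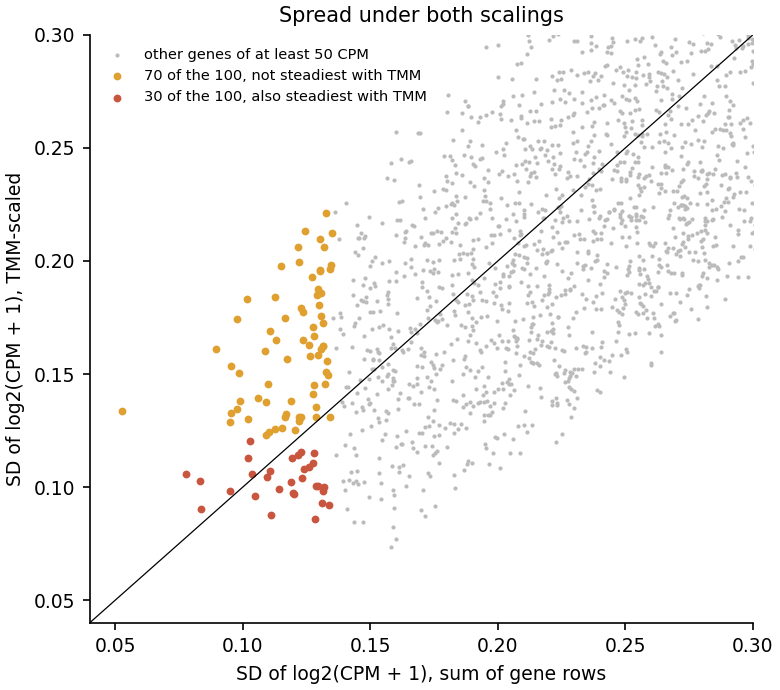
SD of log2(CPM + 1) by the sum of gene rows (horizontal) and after TMM scaling (vertical), with the line of equality and genes above 0.30 on either axis left out. The 30 members in red are among the 100 steadiest under both scalings, and the 70 in yellow, CARHR053170 at the far left included, are not.

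Ratios between genes do not depend on the scaling. For each member the SD of its log2 ratio to every other member was averaged (geNorm M, where a low value is a steady gene). M ran from 0.126 to 0.186 with a median of 0.156. Members were chosen for a low SD in these same libraries, so low values of M follow in part from the choice and are a description. M was not computed for genes outside the list. CARHR053170 (0.126), CARHR139750 (0.131) and CARHR103800 (0.131) had the lowest values, and CARHR242430 the highest. The tightest pair was CARHR079920 with CARHR272100, whose log2 ratio had an SD of 0.0578. Against the geometric mean of the other 99 members, the log2 ratio of a member had an SD of 0.0595 to 0.152 (median 0.114).

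The choice was then repeated in some of the libraries and read in the rest, which gives values of the SD that the choice did not use. Each such list shared only 26 to 55 genes with the 100 members, so the values describe the rule and not the members themselves. The 100 genes chosen in Mock had a median SD of 0.103 there and of 0.141 in Dex, where all eligible genes had 0.282. Chosen in Dex, they had 0.0927 there and 0.162 in Mock, where all genes had 0.313. In the held-out libraries 96 and 98 of the 100 lay below the median of all genes, and 36 and 39 lay in the steadiest 5%. Genes chosen at 2 and 4 h had a median of 0.118 at 6 and 8 h (all genes 0.273), and 30 of them were in the steadiest 5%. Those chosen at 6 and 8 h had 0.178 at 2 and 4 h (all genes 0.329), with 33 in the steadiest 5%. Between replicates, choosing in 2 and 3 gave 0.173 in replicate 1 (all genes 0.398), and choosing in replicate 1 gave 0.145 in 2 and 3 (all genes 0.285), with 37 in the steadiest 5% each way. In all 6 readings the SD was thus lower than that of eligible genes and higher than where the genes were chosen, and most of the chosen genes were not in the steadiest 5% again.

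**Figure D5:**
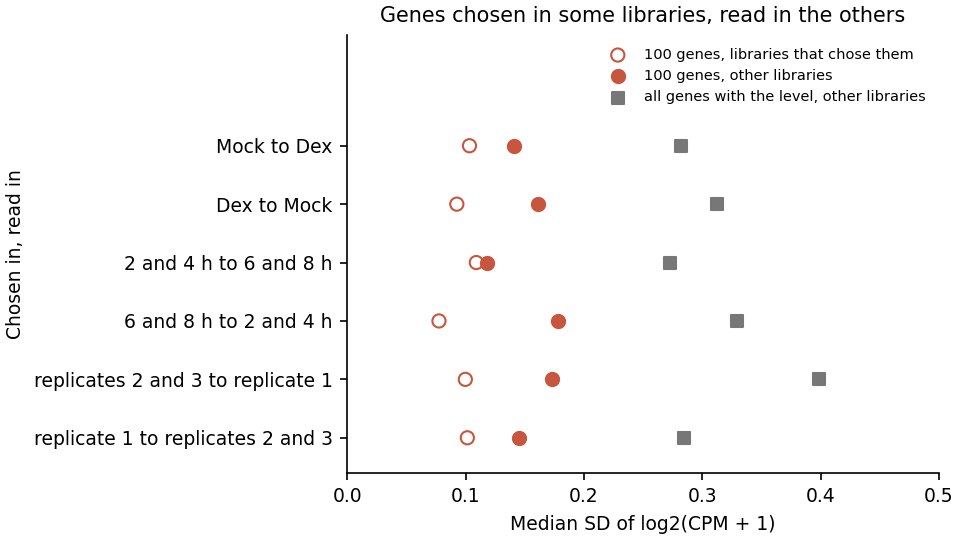
Median SD of log2(CPM + 1) (horizontal) of 100 genes in the libraries that chose them (open circles) and in the other libraries (filled circles), beside all eligible genes in those other libraries (grey squares), for 6 ways of dividing the 24 libraries (vertical). Each way chose its own 100 genes, of which 26 to 55 were members. Filled circles lie between 0.118 and 0.178, to the right of the open circles and to the left of the squares.

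The usual reference genes were then set beside the members. Of 40 textbook references listed, 9 were paired, 7 reached a mean of 50 CPM and 0 were members. Most of the 9 were paired through tables of genes that the study called in these libraries, which leans toward genes that vary, and only *ROC3*, *TUB8* and *ACT12* were paired through binding alone. *ROC3* (CARHR106810), a cyclophilin that folds proteins, ranked best, at 2377 of 4331 with an SD of 0.363. *UBQ10* (CARHR252250), a polyubiquitin gene, ranked 3242, and *GAPC* (CARHR078250), the glycolytic glyceraldehyde-3-phosphate dehydrogenase, 4025. The beta-tubulin genes *TUB2*, *TUB8*, *TUB1* and *TUB5*, which build microtubules, ranked 3672 to 3959. *ACT11* (CARHR086670), an actin gene, had a mean of only 7.77 CPM, and *ACT12* was at 0 counts in every library. No other actin gene was among the 9 paired, so nothing is read here about other actin genes. Tubulin, actin, ubiquitin and GAPDH genes have near-identical copies, and how such reads were divided could move their values.

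*UBQ10* had 318 to 652 CPM in Dex (median 485) and 538 to 1183 in Mock (median 660), and its log2 ratio to the members had an SD of 0.502. Its Dex and Mock ranges overlapped only between 538 and 652 CPM. It fell in Dex by 0.78 ± 0.18 (SE) on the log2 scale in the average over the 4 times (adjusted p = 0.00663, edgeR, n = 12 and 12). *GAPC* had 751 to 905 CPM at 2 h and 1374 to 3971 at 8 h, with no overlap. In Mock it was higher at 8 h than at 2 h by 2.07 ± 0.40 (adjusted p = 0.000706, edgeR, n = 3 and 3), and in the average over the times it fell in Dex by 0.80 ± 0.19 (adjusted p = 0.00697, edgeR). Neither direction changed with scaling by TMM, by the sum of gene rows or by the members.

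*ACT11* rose in Dex by 1.00 ± 0.23 (adjusted p = 0.00651), *TUB5* by 0.76 ± 0.21 (adjusted p = 0.0121) and *TUB1* by 0.59 ± 0.16 (adjusted p = 0.0118), all by edgeR on 12 and 12 libraries. *TUB1* lay at the fold limit, and its call was lost under the replicate block (0.57) and without any 1 of 8 of the 24 libraries (0.51 to 0.57), namely Dex replicate 1 at each time, Mock replicate 1 at 4, 6 and 8 h and 2 h Dex replicate 3. The calls of *UBQ10*, *GAPC*, *ACT11* and *TUB5* for Dex held in each of the 24 fits without 1 library. *TUB2* (0.58) and *TUB8* (0.49) stayed under the fold limit with TMM. By the sum of gene rows, the scaling that defined the list, both passed it (0.69 and 0.59, adjusted p = 0.0102 and 0.0108 in edgeR), and with scaling by the members *TUB2* did (0.69). *ROC3* stood at 0.07 ± 0.12 (adjusted p = 0.675). From 2 h to 8 h in Mock, *ACT11* fell by 1.96, *TUB5* by 1.26, *TUB8* by 1.23, *TUB1* by 1.02 and *TUB2* by 0.90, with adjusted p from 0.00195 to 0.0401 by edgeR. These calls for time were lost by *TUB1* (-0.96), *TUB2* (-0.85) and *TUB5* (-1.22) with scaling by the sum of gene rows and by *TUB2* and *TUB5* with scaling by the members. Without replicate 2 only *GAPC* and *TUB8* were called for time in Mock, and without replicate 3 only *GAPC*, while the differences stayed about as large: -2.0 and -1.94 for *ACT11*, -1.23 and -1.24 for *TUB5*, -1.10 and -1.03 for *TUB1*. Without replicate 1 none of the 5 genes called for Dex kept its call, and the differences fell, to -0.27 for *UBQ10* (adjusted p = 0.122), -0.41 for *GAPC* (adjusted p = 0.0986), 0.47 for *ACT11*, 0.30 for *TUB5* and 0.24 for *TUB1* in edgeR. Without replicate 3 no gene of the whole fit was called for Dex, and the differences of these 5 were larger than with all libraries, at -0.95, -0.97, 1.2, 0.94 and 0.71 in the same order, with adjusted p from 0.0669 to 0.0705 in edgeR.

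A fit across all genes was read for the members as well. A gene was called at an edgeR adjusted p (Benjamini-Hochberg over 21689 genes) under 0.05 with a fold over 1.5. In the average of Dex against Mock over the 4 times, 0 of 100 members were called where 13.7% of all genes were. From 2 h to 8 h, 0 members were called in Mock, where 24.3% of all genes were, and 0 in Dex, where 17.4% were. DESeq2 called 0 members in each of the 3 comparisons too. An unadjusted edgeR p under 0.05 was found for 32, 3 and 4 members, and for 47.9%, 40.7% and 33.8% of all genes. With no limit on the fold, 16 members had an adjusted p under 0.05 for Dex in edgeR, as had 36.4% of all genes, and with TMM 90 of the 100 members lay lower in Dex (-0.27 to 0.06 on the log2 scale). The rule had already kept out genes that change by the fold limit, so nothing is read from these counts. For Dex against Mock at each time alone (n = 3 and 3), the same edgeR fit called 1 of 21689 genes at 2 h and 0 at 4, 6 and 8 h. *ChCUC1* was not called at any single time, although it was higher in Dex by 1.12, 1.89, 1.85 and 1.95 on the log2 scale. Its unadjusted edgeR p was 0.0076, 0.000103, 0.00012 and 7.81e-05 at 2, 4, 6 and 8 h. At the same limits but with another test, the study reported differential genes at different times, some at more than a single time. The tests were not compared here.

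The share of called genes that rose depended on the scaling. The rule chose genes that vary little by the sum of gene rows. For Dex against Mock, scaling by the members thus stays near that sum by construction and is no separate reading of it. With TMM the members' median for Dex against Mock was -0.09 and that of all genes 0.04, and 1031 of 2961 called genes rose (34.8%). When the geometric mean of the members set the library sizes, the median of all genes was 0.14, and 1590 of 3188 called genes rose (49.9%). By the sum of gene rows the median was 0.15 and 1667 of 3202 rose (52.1%). Without replicate 1 the members' median under TMM was -0.01 and that of all genes 0.01, and 18 of 149 called genes rose (12.1%), against 44.7% without replicate 2. For 8 h against 2 h in Mock the share that rose was 36.5% with TMM, 35.6% with the members and 43.2% by the sum, and in Dex 38.3%, 42.1% and 50.8%. For time the members thus lay nearer to TMM than to the sum. By the sum, the members' own deviations averaged -0.02 at 2 h and 0.04 at 8 h on the log2 scale.

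Last, 3 genes outside the list were read relative to the members, as log2 of their count over the members' geometric mean. *ChCUC1* (CARHR090150), the induced boundary gene, whose reads include those of the transgene, had ratios from -3.85 to -2.99 in Dex (median -3.43) and from -7.04 to -4.34 in Mock (median -5.07). All 12 Dex libraries lay above all 12 Mock libraries. The ratio was 3.76-fold higher in Dex (1.91 on the log2 scale, exact two-sided permutation within times, p = 1.25e-05, the smallest the 160000 arrangements can give, adjusted over 3 genes 3.75e-05).

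*WAG1* (CARHR044000) and *WAG2* (CARHR089410), protein kinases that in *A. thaliana* act in auxin-dependent growth, were 2.26- and 3.34-fold higher relative to the members, with 6 of 12 Dex libraries above all Mock libraries for each. Their levels were low, at 0.48 to 7.62 CPM for *WAG1* and 0.107 to 9.42 for *WAG2*, both lowest in 6 h Mock replicate 1. Near the floor the 0.5 added to counts weighs on these ratios. The exact permutation p was 0.00309 and 0.00134, or 0.00309 and 0.00201 adjusted over the 3 genes. By replicate number, the mean difference of the 4 times was 2.88, -0.01 and 0.66 for *WAG1* and 4.15, 0.12 and 0.95 for *WAG2*, against 2.90, 1.31 and 1.53 for *ChCUC1*. Without replicate 1, *ChCUC1* was 2.67-fold higher in Dex (exact permutation, adjusted p = 0.00463), while *WAG1* (1.25-fold, adjusted p = 0.309) and *WAG2* (1.45-fold, adjusted p = 0.234) did not pass. With the 10 steadiest members as reference, the 3 log2 differences were 1.91, 1.17 and 1.74, and with 100 genes chosen in replicates 2 and 3 alone 1.87, 1.13 and 1.70. Both references come from the same rule, so values near those of the members follow in part from the choice. Against the TMM-scaled library size the 3 differences were 1.82, 1.08 and 1.65.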

How the data were processed

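Poly(A) RNA was sequenced from 24 libraries with a directional kit. The deposited files hold whole-number counts of reads per gene, not normalised. Per the submitters' processing notes the authors used STAR 2.4.2a and HTSeq 0.5.4p1, and tested with DESeq. Neither the genome build nor the strand setting is named in the sources used here, and overlapping genes cannot be separated with certainty. The 29458 gene rows were used, and HTSeq summary lines (5.65% to 15.8% without a gene, 0.192% to 0.370% ambiguous) were left out. Counting SDs cover read sampling only, while the values after ± include the spread between libraries.

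CPM, SD, geNorm M and exact permutation tests (160000 arrangements within times, or 4096 within time and replicate number, 0.5 added to counts) were computed in Python 3.11.15 with numpy 2.4.6 and pandas 2.3.3. All 24 libraries were fitted in R 4.3.3 with edgeR 4.0.16 (TMM, filterByExpr with a minimum count of 10, glmQLFit robust, glmQLFTest, 1 coefficient per group), with DESeq2 1.42.0 as an alternative. The limits are those stated in the study. The scripts were tested on simulated data. The labels do not say that replicates came from separate sowings, so p-values measure the spread between these pools.

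Counterparts in *A. thaliana* came from 4021 identifier pairs in the study's supplementary tables, 1846 of them only in tables of differentially expressed genes. The reference table supplied matched 0 identifiers, and no sequences or coordinates are given. Named were the 5 steadiest members, those at the limit by values, the 3 highest and 3 lowest by mean CPM, all with a counterpart, the 2 most extreme each way for Dex and for time, the 3 lowest in geNorm M, textbook references with a pair, *ChCUC1*, *WAG1* and *WAG2*. Further identifiers (the tightest pair and the highest geNorm M) were chosen after their values were seen. Members, lists and tests were chosen with earlier results of these data known. A marker of the shoot apex list is not reported here.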

Additional observations from a re-analysis of the deposited data

How the results depend on the processing

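Against 100 members in the list as described, 30 were shared with TMM-scaled CPM, 30 with DESeq2 size factors, 50 with a mean of at least 20 CPM, 38 with at least 100 CPM, 0 with no filter on level (where genes near 0 counts come first) and 41 with the SD within the 8 groups. A pseudocount of 0.1 and the coefficient of variation kept 99 and 95. Leaving out 1 replicate number kept 55 to 87, and 1 library 67 to 100. The median SD of the list was 0.106 with TMM, 0.143 with at least 100 CPM, 0.0135 with no filter and 0.148 when chosen within groups, and 0.0998 to 0.129 without 1 replicate number. The causes were not tested. Median geNorm M was 0.147 to 0.168 without 1 replicate number. Counts of genes in the steadiest 5% of held-out libraries stayed within 1.5 times under all alternatives run.

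Without 1 replicate number, genes called by edgeR for Dex against Mock ran from 0 to 4810 (149 without replicate 1, and 0 without replicate 3, where 8601 genes had an unadjusted p under 0.05). For 8 h against 2 h they ran from 2008 to 6137 in Mock and from 938 to 4435 in Dex. Without 1 library the average called 2103 to 3493. The ratios of *WAG1* and *WAG2* to the members fell to 0.32 and 0.54 without replicate 1, and ran to 1.77 and 2.55 without replicate 2. *ChCUC1* ran from 1.42 to 2.21. Of 224 values of textbook references whose comparison was called with all libraries and TMM, 185 were called under the alternative too and 39 were not, and of 160 not called, 22 were called and 138 were not.

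Within a time, same-numbered Dex and Mock libraries did not rise and fall together, with correlations of -0.59 to 0.14 in their deviations from group means. Correlations between times were not computed. Across times replicate 1 stood apart, with TMM factors of 1.07 to 1.15 in Dex and 0.83 to 1.01 in Mock. The mean difference of *WAG2* was 4.15 there, against 0.12 and 0.95 in replicates 2 and 3. Fits without the replicate block take libraries of the same number as independent across times, as do the permutations with and without it. That independence was not tested. The block permutation exchanges Dex and Mock separately within each time and replicate number. The edgeR block fits a shift per replicate number that Dex and Mock share. With the replicate block edgeR called 2812 genes in the average, 5244 for time in Mock and 3745 in Dex. The ratios to the members kept an exact p of 0.00146, 0.0225 and 0.00879 (adjusted) for *ChCUC1*, *WAG1* and *WAG2* under the block, and *TUB1* lost its call (0.57). Each group holds 3 pools from 1 transgenic background, 93 of 100 members have no counterpart here, and steadiness in other tissues, ages or longer treatments was not analysed here.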
